A study of Homo sapiens with 12 samples.

Results

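Potassium channel genes were taken as all rows of the deposited count table whose gene name has the form KCN, letters and a final number, which leaves out antisense transcripts. The rule found 95 of 50868 genes, and 46 of them reached a count that could be tested. RNA was taken from the established human osteosarcoma line MG63, grown in DMEM with fetal bovine serum, in 4 groups of 3 libraries. One pair of groups received 1 µM anticarin-beta or vehicle for 18 hours. The other pair was transfected with CCT4-specific siRNA or the Allstar control siRNA and collected after 2 days. CCT4 is a subunit of the cytosolic chaperonin, and the series sets the response to the compound beside that to CCT4 knockdown. All libraries come from 1 line, and the labels do not say that replicates were separate cultures, so each p-value speaks only for the spread among these libraries, which may be technical.

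Potassium channels let potassium leave or enter the cell along its gradient and thereby set the membrane voltage, the cell volume and the driving force for calcium entry. Inward rectifiers (KCNJ) and two-pore channels (KCNK) hold the resting voltage, voltage-gated channels (such as KCNA, KCNC, KCND, KCNQ and KCNH) open on depolarization, and calcium-activated channels (KCNMA1, KCNN) open when calcium rises. The KCNF, KCNG, KCNS and KCNV genes encode subunits that form no channel alone but modify other voltage-gated channels. KCNAB, KCNE, KCNIP and KCNMB genes encode auxiliary subunits. Bone-forming cells and osteosarcoma lines are known to carry calcium-activated and voltage-gated potassium currents.

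Library totals ran from 13393750 to 17492095 counts, and the potassium channel genes together held 6348 to 9669 counts in a library. Levels are given in CPM (counts scaled to the library total) with TMM scaling, under which 3 counts in 1 library correspond to 0.160 to 0.277 CPM. Comparisons between genes use the level per kilobase of annotated exon (FPKM). Of the 49 genes that were not tested, 12 had 0 counts in all libraries and the largest single count of the others was 11. Osteoblast and mesenchymal markers fitted the label: COL1A1 averaged 5018 ± 192 CPM with anticarin-beta, 3777 ± 259 CPM with vehicle, 756 ± 46.2 CPM in the libraries labelled CCT4 siRNA and 533 ± 30.7 CPM with control siRNA (SD, n = 3 each). The 7 such markers summed to 15700 to 16440 CPM with anticarin-beta, 9620 to 12490 CPM with vehicle, 6696 to 6954 CPM in the libraries labelled CCT4 siRNA and 5434 to 5763 CPM with control siRNA. Markers of other cell types were mixed. Epithelial EPCAM and CDH1 averaged 0.142 and 0.0559 CPM with anticarin-beta and 0.0356 and 0.0178 CPM with vehicle, while the keratins made the 5 epithelial markers sum to 148 to 170.4 CPM with anticarin-beta and 134 to 159.7 CPM with vehicle. Of these 3 were tested, with 1 higher and 1 lower. Leukocyte CD3E had 0 counts, PTPRC averaged 1.8 CPM with anticarin-beta and 0.869 CPM with vehicle, and the 4 leukocyte markers, of which 2 were tested and CD14 was higher, summed to 14.3 to 16.1 CPM with anticarin-beta and 6.87 to 12.7 CPM with vehicle. The 3 endothelial markers summed to 6.29 to 8.12 CPM with anticarin-beta and 6.34 to 8.45 CPM with vehicle, with CDH5 and VWF higher and PECAM1 lower. Neuronal ELAVL4 had 0 counts, and the 5 neuronal markers summed to 4.69 to 7.46 CPM with anticarin-beta and 2.56 to 3.38 CPM with vehicle. Of the 4 neuronal markers tested MAP2 was higher, at 3.09 ± 0.361 CPM with anticarin-beta and 0.457 ± 0.285 CPM with vehicle. In the siRNA comparison 0 epithelial, leukocyte, endothelial and neuronal markers passed. The part of these markers in the results below was not tested.

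Per kilobase of annotated exon, the leading potassium channel transcript differed between the compound and its vehicle. KCNJ2, an inward rectifier that stabilizes the resting voltage, made up 33.3% ± 0.681 of the summed FPKM of all 95 genes with anticarin-beta and 4.15% ± 0.838 with vehicle (SD, n = 3 each). KCNK6, a two-pore channel of the TWIK group, made up 1.5% ± 0.196 with anticarin-beta and 22.8% ± 2.29 with vehicle. The 3 treated libraries lay between 32.7% and 34.0% for KCNJ2, and the 3 vehicle libraries between 3.23% and 4.87%. KCNJ2 (24.3 FPKM) was followed by KCNJ14 (8.47), KCNE5 (4.89) and KCNMA1 (4.74) with anticarin-beta, where KCNE5 and KCNMA1 overlap over the replicates. With vehicle KCNK6 (13.4 FPKM) led, and KCNS3 (4.79), KCNE4 (3.37) and KCNF1 (2.99) were also among the most abundant. The ranges of KCNS3 and KCNE4 overlap, as do those of KCNE4 and KCNF1, while KCNS3 lay above KCNF1. This order depends on the length of annotated exons, which is 35644 bases for KCNMA1, 5577 for KCNJ2 and 6169 for KCNK6. In CPM, KCNMA1 was above KCNJ2 with anticarin-beta (means 169 and 136) and above KCNK6 with vehicle (104 and 82.9). The summed level of all 95 genes was 73.1 ± 2.87 FPKM with anticarin-beta and 59.0 ± 1.55 FPKM with vehicle.

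**Figure D1:**
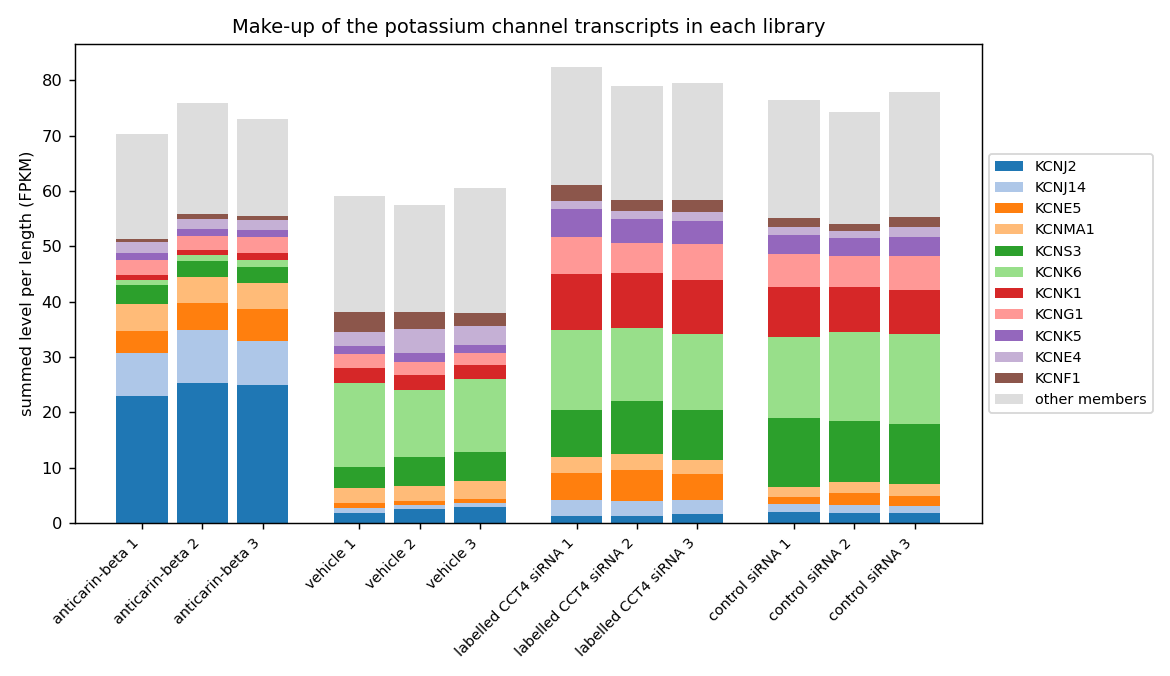
Level per length (FPKM) of the potassium channel genes stacked for each of the 12 libraries, with 11 genes in colour and the remaining members in grey. KCNJ2 is the tallest coloured segment in the 3 anticarin-beta libraries (32.7% to 34.0% of the sum) and KCNK6 in the 3 vehicle libraries (21.3% to 25.4%), the libraries labelled CCT4 siRNA (16.7% to 17.5%) and the control siRNA libraries (19.2% to 21.8%).

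Of the 46 genes tested, 34 differed between anticarin-beta and vehicle (adjusted p under 0.05 in edgeR's quasi-likelihood test with Benjamini-Hochberg adjustment over 17717 genes). 16 were higher and 18 lower. Among all genes tested 73.0% passed, 34.9% higher and 38.0% lower, so the share of potassium channel genes that passed (73.9%, with 34.8% higher and 39.1% lower) was near that of all genes. The median log2 fold change was −0.39 for the 46 genes and −0.06 for all genes. By more than 2-fold, 10 were higher and 14 lower, or 21.7% and 30.4% of those tested, against 20.9% and 24.8% of all genes. The 3 treated values lay above all 3 vehicle values in 16 genes and below them in 21, which was so for 35.8% and 38.8% of all genes. The scaling matters for the split: TMM factors were 0.804 to 0.810 in the anticarin-beta libraries and 1.07 to 1.10 in the vehicle libraries, and with library totals alone, which move the median of all genes to −0.48, 11 potassium channel genes were higher and 23 lower, while 24.2% of all genes were higher and 50.6% lower. KCNH1 and KCNN1 reached the filter's level only in the anticarin-beta libraries, so a difference was built into their passing it. KCNS1 reached it only in the anticarin-beta libraries and those labelled CCT4 siRNA, so the same holds for KCNS1 in both comparisons. Outside the anticarin-beta libraries KCNH3 reached it in too few libraries to pass the filter, as did KCNJ8 outside the vehicle libraries. The same therefore holds for KCNH3 and KCNJ8 with the compound. By contrast, 25 genes reached it in some library of every group, and among these 8 were higher and 11 lower. In bulk RNA, a lower level in each cell and fewer cells with the transcript cannot be told apart.

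**Figure D2:**
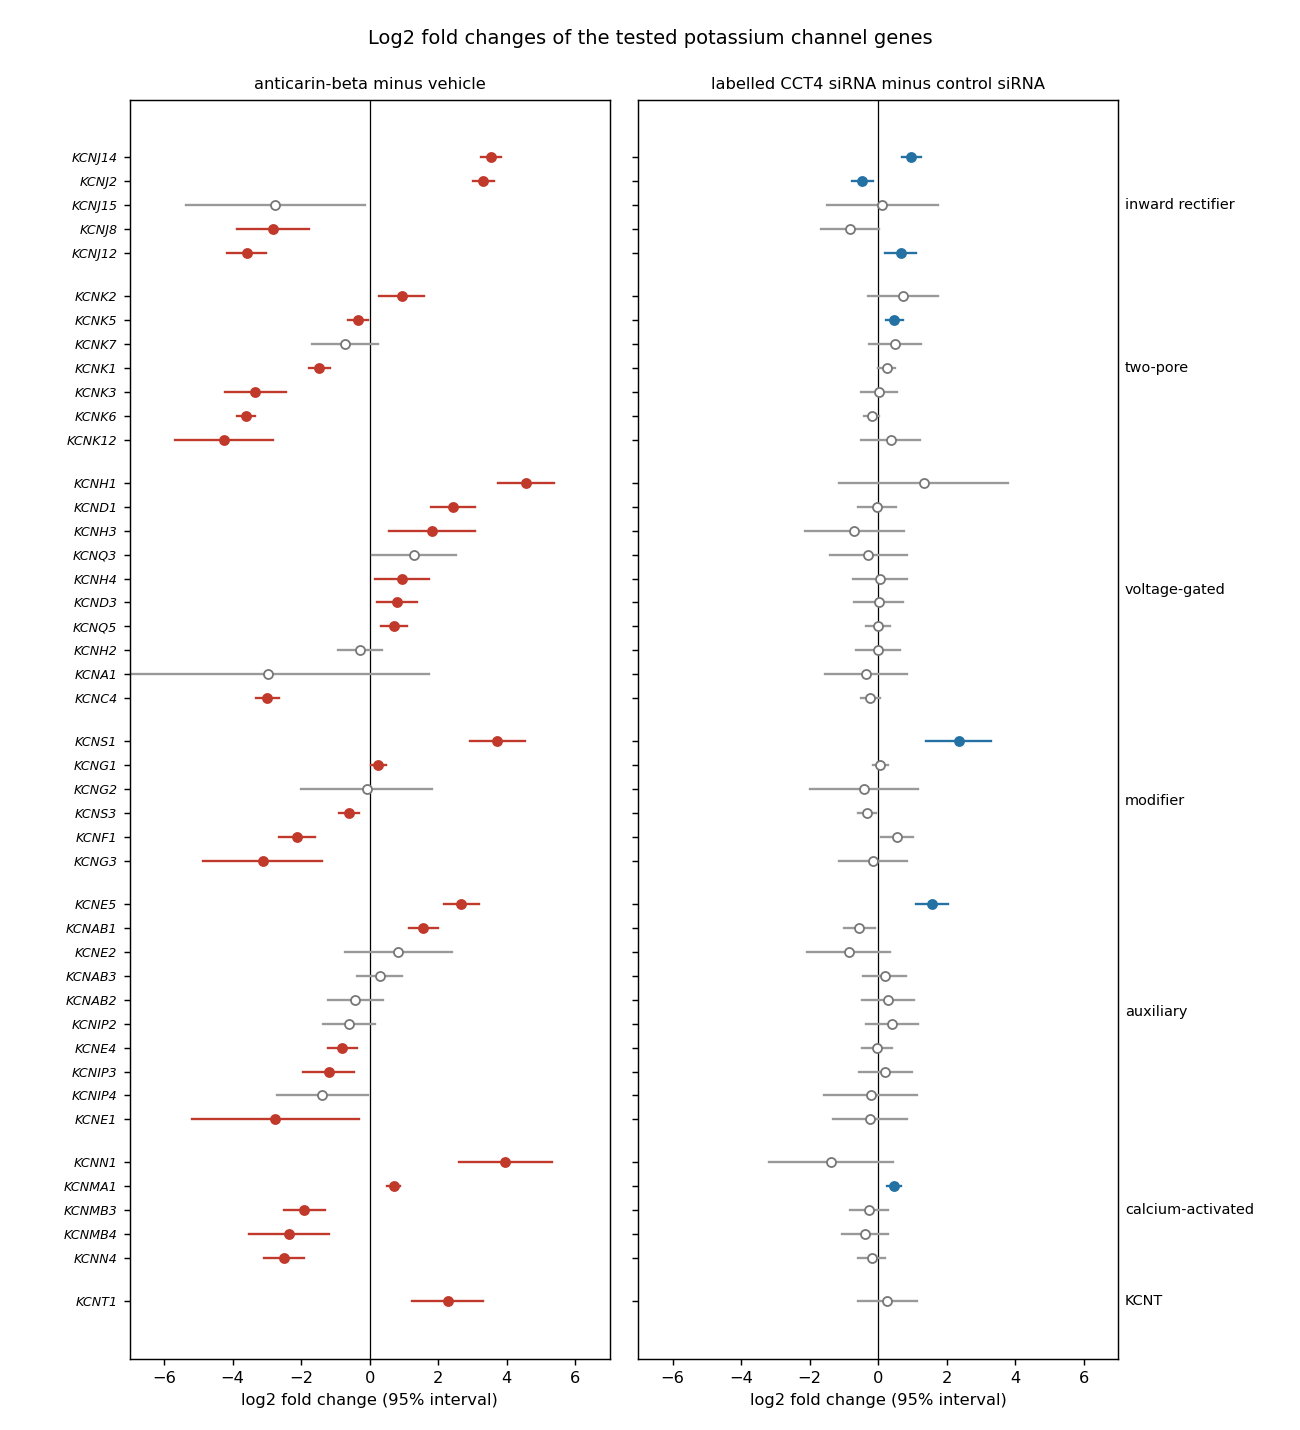
Log2 fold changes with 95% intervals of 44 of the 46 tested genes, grouped by kind of subunit, for anticarin-beta minus vehicle (left) and the libraries labelled CCT4 siRNA minus control siRNA (right). Filled points passed the test (33 on the left, 7 on the right), intervals are drawn to the axis limits, and fitted values of genes with 3 counts or fewer in a group depend on the prior count.

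Inward rectifiers moved in both directions with the compound. Of 16 genes, 5 were tested, with 2 higher, 2 lower and 1 not called, where 34.9% of all genes were higher and 38.0% lower. KCNJ2 (chromosome 17, 70168673 to 70180048 in GRCh38, plus strand) had 128, 141 and 139 CPM with anticarin-beta and 10.7, 13.9 and 16.4 CPM with vehicle. The lowest treated library was several times the highest vehicle library, and the fold was 9.93 (log2 fold change 3.31 ± 0.14, SE, adjusted p = 4.46e-10). Its antisense neighbour KCNJ2-AS1, which shares exon sequence on the opposite strand, averaged 4.74 CPM with anticarin-beta and 2.07 CPM with vehicle and was also called higher; no source used here states whether reads were counted by strand.

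KCNJ14, a second channel of the same inward rectifier subfamily, had 33.7, 42 and 34.6 CPM with anticarin-beta and 3.57, 2.96 and 2.94 CPM with vehicle. The groups were far apart, with a fold of 11.6 (log2 fold change 3.54 ± 0.14, adjusted p = 2.08e-10). It shares exon sequence on its strand with GRWD1, a histone chaperone gene that averaged 91.2 CPM with anticarin-beta and 74 CPM with vehicle and was not called, so the count of KCNJ14 is uncertain. KCNJ12, also of that subfamily, ran the other way, with 0.839, 0.739 and 0.502 CPM with anticarin-beta and 9.64, 7.96 and 7.81 CPM with vehicle. All treated libraries were below 1 CPM, and KCNJ12 fell 12.1-fold (log2 fold change −3.60 ± 0.26, adjusted p = 6.05e-08). KCNJ12 has a near-identical copy, KCNJ18, which had 3, 2 and 0 counts in the vehicle libraries and 0 in all others, so the division of reads between them is uncertain.

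KCNJ8 encodes the pore of ATP-sensitive potassium channels of vessels and other tissues. It had 0.168, 0.0924 and 0.167 CPM with anticarin-beta and 0.959, 1.09 and 1.18 CPM with vehicle, 7.11-fold lower (log2 fold change −2.83 ± 0.48, adjusted p = 1.56e-04). KCNJ8 would not have passed the count filter without the vehicle libraries, where it was higher, so a difference was built into its passing. Its regulatory partner ABCC9, the sulfonylurea receptor that assembles with KCNJ8, was instead higher, at 1.65 ± 0.417 CPM with anticarin-beta and 0.453 ± 0.2 CPM with vehicle (log2 fold change 1.86 ± 0.35, adjusted p = 3.51e-04). KCNJ15, a kidney and epithelial inward rectifier, had 3 counts over the treated libraries and 34 over the vehicle libraries and missed the threshold (adjusted p = 0.0539).

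The 250 bases before the RefSeq start are shown for KCNJ2 and KCNJ14, which were higher, and KCNK6, which was lower. They are given in GRCh38.p14, all on the plus strand, 5′ to 3′. These genes were taken because, per length, KCNJ2 led with anticarin-beta, KCNJ14 came next to it and KCNK6 led with vehicle. Capitals mark motif letters on either strand. The GC box, spelled GGGCGG, is found in all of them, in KCNK6 on the opposite strand only. The letters TATAAA are found in KCNJ14, on the opposite strand. The letters CCAAT are found in KCNJ2, also on the opposite strand. They lie at chr17:70169282-70169531, chr19:48455324-48455573 and chr19:38319595-38319844.
KCNJ2: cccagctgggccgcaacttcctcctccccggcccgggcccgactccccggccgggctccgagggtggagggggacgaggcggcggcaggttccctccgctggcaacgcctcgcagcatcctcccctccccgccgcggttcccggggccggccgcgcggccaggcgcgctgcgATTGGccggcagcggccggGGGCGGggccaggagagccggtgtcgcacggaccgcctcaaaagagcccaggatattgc
KCNJ14: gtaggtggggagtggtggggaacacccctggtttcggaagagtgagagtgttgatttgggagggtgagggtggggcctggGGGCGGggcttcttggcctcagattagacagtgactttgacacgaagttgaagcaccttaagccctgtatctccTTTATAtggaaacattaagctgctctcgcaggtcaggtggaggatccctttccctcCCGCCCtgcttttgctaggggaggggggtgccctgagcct
KCNK6: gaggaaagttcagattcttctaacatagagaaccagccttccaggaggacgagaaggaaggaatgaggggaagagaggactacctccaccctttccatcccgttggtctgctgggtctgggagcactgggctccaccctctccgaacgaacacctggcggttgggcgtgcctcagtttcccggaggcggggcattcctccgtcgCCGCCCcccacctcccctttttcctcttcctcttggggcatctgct
The window is 77.6% G and C in KCNJ2, 57.2% in KCNJ14 and 59.6% in KCNK6, against a median of 58.0% over all promoters of the table.

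The RefSeq promoter table matched 34 of the 46 tested genes, 13 of the genes higher with anticarin-beta and 13 of those lower. A GC box was found in 25 of the 34, called or not, with 9 of the 13 higher and 10 of the 13 lower. It was found in 42.3% of all 27305 promoters of this length. The CCAAT letters were found in 11 of the 34, with 5 of 13 higher and 3 of 13 lower, and in 33.0% of all promoters. The TATAAA letters were found in 1 of 13 higher (KCNJ14) and 1 of 13 lower (KCNK1), and in 11.1% of all promoters. The AP-1 letters (TGANTCA) were found in 0 of 13 higher and 0 of 13 lower and in 6.60% of all promoters, and the CRE letters (TGACGTCA) in 0 higher and 1 lower (KCNF1) and in 1.77% of all. No use of these starts was measured, and a match is a description of letters in this window.

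Among the two-pore channels, KCNK6 and KCNK1 were lower with the compound. Of 15 genes 7 were tested, with 1 higher, 5 lower (KCNK5 not under every alternative) and 1 not called, where 34.9% of all genes were higher and 38.0% lower; the class was not tested against other genes. KCNK6 (chromosome 19, 38319844 to 38332076, plus strand) had 5.62, 7.12 and 7.61 CPM with anticarin-beta and 92.8, 75.3 and 80.7 CPM with vehicle. The groups did not come near each other, and the level fell 12.2-fold (log2 fold change −3.61 ± 0.12, adjusted p = 6.70e-11). KCNK1, the founding TWIK channel, had 3.1, 2.96 and 4.52 CPM with anticarin-beta and 10.3, 9.89 and 9.36 CPM with vehicle, a 2.78-fold decrease (log2 fold change −1.47 ± 0.14, adjusted p = 1.04e-06). KCNK6 and KCNK1 were both lower in all 3 treated libraries than in any vehicle library.

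KCNK3, an acid-sensitive background channel, had 0.168, 0.277 and 0.0837 CPM with anticarin-beta and 1.28, 1.81 and 2.41 CPM with vehicle. It was 10.1-fold lower, with the treated libraries at 1 to 3 counts each (adjusted p = 9.57e-06). KCNK12 had 1, 1 and 0 counts with anticarin-beta and 20, 12 and 36 counts with vehicle, a ratio of vehicle to anticarin-beta of 21.8 (95% counting interval 5.81 to 184), and was called lower (adjusted p = 7.64e-05). KCNK5, an alkaline-activated channel, differed by little, with 4.53, 4.9 and 4.35 CPM with anticarin-beta and 5.91, 6.09 and 5.51 CPM with vehicle. Its groups did not overlap, and the call (log2 fold change −0.35 ± 0.13, adjusted p = 0.0286) was fragile. It did not pass on omission of vehicle replicate 1 (−0.34), vehicle replicate 2 (−0.33), anticarin-beta replicate 1 (−0.35) or anticarin-beta replicate 3 (−0.33), nor with RLE size factors (−0.28), DESeq2 (−0.28), limma-voom (−0.34), no low-count filter (−0.37), each experiment fitted alone (−0.35) or a replicate block (−0.35). KCNK2, a mechanically gated channel, was the member called higher, with 4.44, 4.81 and 3.85 CPM with anticarin-beta and 1.44, 1.75 and 3.64 CPM with vehicle (log2 fold change 0.93 ± 0.30, adjusted p = 0.0137). Vehicle replicate 3 lay near the treated libraries, and the gene did not pass on omission of vehicle replicate 1 (0.68) or vehicle replicate 2 (0.76), nor with library totals alone (0.52). KCNK7 was not called (log2 fold change −0.73 ± 0.44, adjusted p = 0.152).

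Among the voltage-gated pore genes, KCNH1 and KCND1 were higher and KCNC4 was lower. Of 30 genes 12 were tested, with 6 higher, 2 lower and 4 not called, where 34.9% of all genes were higher and 38.0% lower, and 6 had 0 counts in all libraries. Of the 6 higher, KCND3, KCNH4 and KCNQ5 did not pass under every alternative, and KCNH1 passed the count filter through the anticarin-beta libraries alone. KCNH3 would not have passed the filter without those libraries. KCNH1 encodes the ether-a-go-go channel, which is normally restricted to brain and is found in many tumours. Its libraries had 5.62, 5.91 and 5.94 CPM with anticarin-beta (67, 64 and 71 counts) and 0.16, 0.181 and 0.374 CPM with vehicle (3, 3 and 7 counts). The transcript was close to the detection floor with vehicle and present in every treated library, a fold of 23.5 (log2 fold change 4.55 ± 0.38, adjusted p = 2.14e-07). Other annotated genes share exon sequence with KCNH1 on its strand, so its count is uncertain. KCND1, an A-type channel, had 3.1, 3.33 and 2.93 CPM with anticarin-beta and 0.533, 0.603 and 0.588 CPM with vehicle. The spread within each group was small, and the fold was 5.37 (log2 fold change 2.42 ± 0.29, adjusted p = 7.26e-06).

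The related A-type gene KCND3 rose less, with 3.94, 4.9 and 4.6 CPM with anticarin-beta and 2.24, 2.83 and 2.67 CPM with vehicle (log2 fold change 0.79 ± 0.28, adjusted p = 0.0198). KCND3 did not pass on omission of vehicle replicate 1 (0.70), anticarin-beta replicate 2 (0.71) or anticarin-beta replicate 3 (0.75), nor with library totals alone (0.38). KCNQ5, of the M-current family, had 12.2, 13 and 10.9 CPM with anticarin-beta and 7.94, 8.69 and 5.56 CPM with vehicle (log2 fold change 0.71 ± 0.17, adjusted p = 0.00255), and did not pass with library totals alone (0.29). KCNH3, an ether-a-go-go-like channel known from forebrain, rose 3.52-fold to 1.76, 0.832 and 1.76 CPM with anticarin-beta, against 0.213, 0.543 and 0.481 CPM with vehicle (adjusted p = 0.0124). KCNH3 had 21, 9 and 21 counts with anticarin-beta and 4, 9 and 9 with vehicle. It would not have passed the count filter without the anticarin-beta libraries, so a difference was built into its passing. Its opposite-strand neighbour MCRS1 was lower, at 10.7 CPM with anticarin-beta and 41.3 CPM with vehicle. KCNH4, of the same group as KCNH3, had 8 to 13 counts in the treated libraries and 7 to 10 in the vehicle libraries. KCNH4 was called (log2 fold change 0.94 ± 0.37, adjusted p = 0.0339), but not on omission of vehicle replicate 1 (0.81), vehicle replicate 2 (0.95), anticarin-beta replicate 2 (0.68) or anticarin-beta replicate 3 (0.97), nor with upper quartile scaling (0.83), library totals alone (0.53), DESeq2 (1.02), no low-count filter (0.92) or a replicate block (0.93).

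KCNC4, a fast voltage-gated channel, fell most in this class. It had 2.68, 3.97 and 2.84 CPM with anticarin-beta and 21.2, 26.5 and 28 CPM with vehicle. Every treated library was far below every vehicle library, at a 7.98-fold decrease (adjusted p = 2.71e-09). KCNH2, the hERG channel of the heart, had 2.94, 2.4 and 1.84 CPM with anticarin-beta and 1.92, 3.5 and 3.37 CPM with vehicle and was not called (log2 fold change −0.29 ± 0.30, 95% interval −0.94 to 0.37). KCNQ3, which forms the M-current with other KCNQ subunits, was variable, at 4.44 to 15.3 CPM with anticarin-beta and 1.75 to 6.45 CPM with vehicle (adjusted p = 0.0569). KCNA1 was likewise not called and had 0 counts over the treated libraries and 3 over the vehicle libraries.

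**Figure D3:**
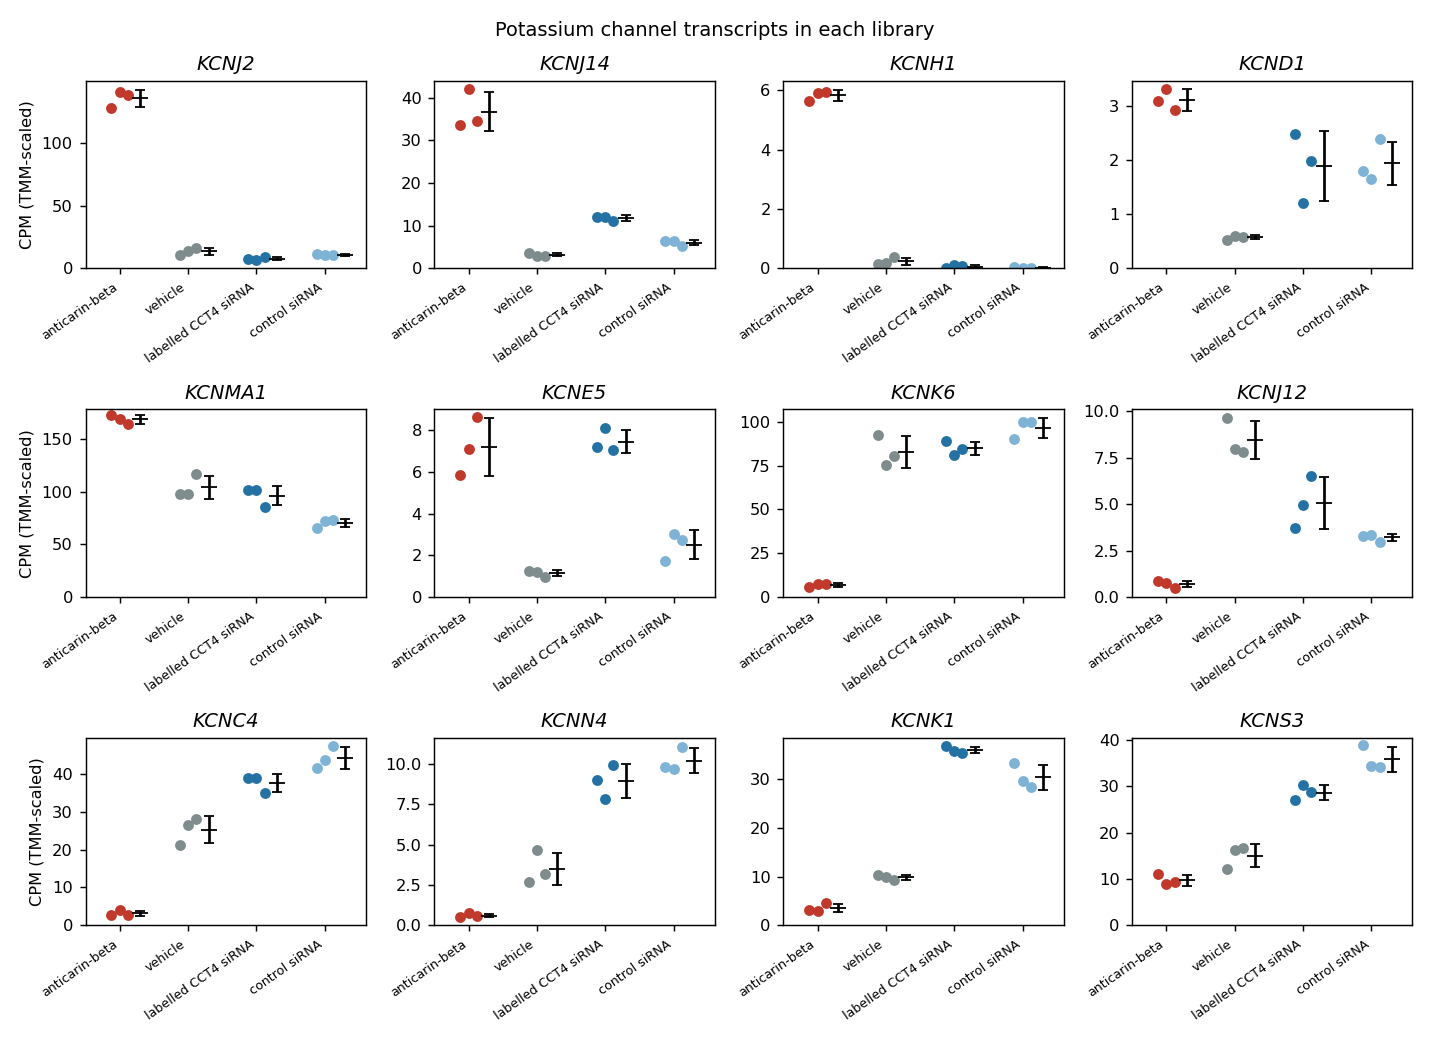
Levels (CPM, TMM-scaled, linear axes from 0) of 12 potassium channel genes in each library, with the 3 replicates of a group as points and the mean and SD beside them. KCNJ2 lies between 128 and 141 CPM with anticarin-beta and under 17 CPM in all other libraries, and KCNK6 between 5.62 and 7.61 CPM with anticarin-beta and above 75 CPM in all others.

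Among the modifier subunits, KCNS1 rose while KCNF1 and KCNS3 fell. Of 10 genes 6 were tested, with 2 higher, 3 lower and 1 (KCNG2) not called, where 34.9% of all genes were higher and 38.0% lower. KCNS1 reached the count filter's level only in the anticarin-beta libraries and those labelled CCT4 siRNA. KCNS1 had 4.19, 3.51 and 2.93 CPM with anticarin-beta and 0.16, 0.422 and 0.214 CPM with vehicle. The treated values were clear of the vehicle values by a fold of 13.2 (log2 fold change 3.73 ± 0.37, adjusted p = 1.26e-06). KCNF1 had 1.26, 1.76 and 1.67 CPM with anticarin-beta and 8.21, 7.12 and 5.24 CPM with vehicle and fell 4.38-fold (log2 fold change −2.13 ± 0.24, adjusted p = 4.43e-06). KCNS3, the most abundant modifier per length, had 11.1, 8.87 and 9.29 CPM with anticarin-beta and 12.1, 16.2 and 16.7 CPM with vehicle (log2 fold change −0.62 ± 0.13, adjusted p = 0.0011). The highest treated library lay just below the lowest vehicle library. KCNG3 had 0, 0 and 3 counts with anticarin-beta and 15, 16 and 13 counts with vehicle, a ratio of vehicle to anticarin-beta of 9.41 (95% counting interval 3.02 to 47.4). Without anticarin-beta replicate 3 its fitted log2 fold change was −6.69, a value set by the prior count. KCNG1 had 14.9, 13.8 and 16.2 CPM with anticarin-beta and 13, 12.8 and 11.9 CPM with vehicle. The small call (log2 fold change 0.25 ± 0.10, adjusted p = 0.0405) was not kept on omission of vehicle replicate 2 (0.25), vehicle replicate 3 (0.22), anticarin-beta replicate 1 (0.24), anticarin-beta replicate 3 (0.17) or control siRNA replicate 1 (0.25), nor with upper quartile scaling (0.14), library totals alone (−0.16), limma-voom (0.25), no low-count filter (0.22), each experiment fitted alone (0.25) or a replicate block (0.25), and library totals alone turned its direction.

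Auxiliary subunits of voltage-gated channels split as well, with 10 of 12 tested, 2 higher, 3 lower and 5 not called. Among all genes tested 34.9% were higher and 38.0% lower. KCNE5, a single-pass subunit that inhibits KCNQ channels, had 5.87, 7.12 and 8.62 CPM with anticarin-beta and 1.23, 1.21 and 0.962 CPM with vehicle. All treated values were above all vehicle values, at a fold of 6.34 (log2 fold change 2.66 ± 0.23, adjusted p = 3.90e-07). It shares exon sequence on its strand with ACSL4, a fatty acid activating enzyme at 369.5 CPM with anticarin-beta and 265 CPM with vehicle (log2 fold change 0.48, called higher), so its count is uncertain. KCNAB1, a cytosolic beta subunit of the KCNA channels, had 7.3, 8.13 and 7.78 CPM with anticarin-beta and 2.56, 1.99 and 3.26 CPM with vehicle, a 2.96-fold rise (log2 fold change 1.56 ± 0.19, adjusted p = 8.59e-06). The KCNA pore genes it is known to partner were not tested except KCNA1. KCNAB2, its close relative, lay at 7.78 to 16.9 CPM with anticarin-beta and 9.35 to 20.1 CPM with vehicle and was not called.

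KCNE4, which inhibits KCNQ1 and KCNA channels, had 8.39, 7.86 and 7.61 CPM with anticarin-beta and 10.1, 17.6 and 13.9 CPM with vehicle. The treated libraries were tight and below all vehicle libraries (log2 fold change −0.80 ± 0.19, adjusted p = 0.00211). KCNIP3, a calcium sensor that binds KCND channels and also acts as a transcriptional repressor, had 2.18, 2.5 and 2.09 CPM with anticarin-beta and 5.43, 4.76 and 5.4 CPM with vehicle (log2 fold change −1.21 ± 0.34, adjusted p = 0.00623). KCNE1, the partner of KCNQ1 in heart, had 1 count over the treated libraries and 13 over the vehicle libraries, a ratio of vehicle to anticarin-beta of 8.35 (95% counting interval 1.25 to 355). KCNE1 was called (adjusted p = 0.0409), but not on omission of vehicle replicate 2 (−2.41), vehicle replicate 3 (−2.67), anticarin-beta replicate 1 (−2.27), anticarin-beta replicate 3 (−2.28) or control siRNA replicate 1 (−2.75), nor with a replicate block (−2.77). Without anticarin-beta replicate 2, which held that count, the fitted value was −4.97. KCNAB3, KCNE2, KCNIP2 and KCNIP4 were not called, with log2 fold changes from −1.39 to 0.83.

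Calcium-activated channel genes included members that were higher and members that were lower. Of 9 genes 5 were tested, and all 5 passed, 2 higher and 3 lower, where 73.0% of all genes passed, 34.9% higher and 38.0% lower. KCNN1, which was higher, passed the count filter through the anticarin-beta libraries alone. The class was not tested against other genes. KCNMA1, the pore of the large-conductance BK channel and the most counted member with anticarin-beta, had 173, 169 and 165 CPM with anticarin-beta and 98.1, 97.6 and 117 CPM with vehicle. The groups did not overlap, and the fold was 1.62 (log2 fold change 0.70 ± 0.09, adjusted p = 1.53e-05). Both tested beta subunits of the BK channel were lower. KCNMB3 had 0.755, 1.02 and 1 CPM with anticarin-beta and 3.36, 3.14 and 3.96 CPM with vehicle (log2 fold change −1.91 ± 0.27, adjusted p = 3.44e-05). It shares exon sequence with the pseudogene LRRFIP1P1 on its strand, which was also lower (log2 fold change −1.19). KCNMB4 had 5, 0 and 2 counts with anticarin-beta and 14, 20 and 23 counts with vehicle (log2 fold change −2.35 ± 0.54, adjusted p = 0.00161, and −3.49 without anticarin-beta replicate 1). KCNN4, the intermediate-conductance channel known from blood cells, epithelia and proliferating cells, had 0.503, 0.739 and 0.586 CPM with anticarin-beta and 2.72, 4.64 and 3.15 CPM with vehicle, 5.7-fold lower (−2.51 ± 0.27 on the log2 scale, adjusted p = 2.80e-06).

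The small-conductance gene KCNN1 went the other way, with 1.93, 2.59 and 1 CPM with anticarin-beta and 0.266, 0.0603 and 0 CPM with vehicle. The vehicle libraries held 5, 1 and 0 counts, so the fold of 15.5 (log2 fold change 3.95 ± 0.63, adjusted p = 8.77e-05) rests on few reads, and without vehicle replicate 1 the log2 fold change was 5.64. KCNT1, a sodium-activated channel, had 0.839, 0.647 and 1.26 CPM with anticarin-beta and 0.32, 0.0603 and 0.16 CPM with vehicle. It was 4.82-fold higher (log2 fold change 2.27 ± 0.48, adjusted p = 9.35e-04, and 2.93 without vehicle replicate 1).

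The siRNA experiment was read with the state of its target in view. CCT4 had 201, 199.6 and 216 CPM in the libraries labelled CCT4 siRNA and 186, 160.2 and 185 CPM with control siRNA. The labelled libraries were not lower (log2 fold change 0.22 ± 0.09, adjusted p = 0.129), so the labelled knockdown was not seen in the mRNA and directions below are those of the libraries labelled CCT4 siRNA. Of the 46 potassium channel genes 7 passed (15.2%), with 6 higher and 1 lower, while 19.7% of all genes passed, 10.7% higher and 9.04% lower. By more than 2-fold, 2 were higher and 0 lower, against 1.60% and 1.46% of all genes. 10 of the 46 had an unadjusted p under 0.05. The median log2 fold change was 0.01 for the 46 genes and 0.01 for all genes. With library totals alone, which move the median of all genes to −0.12, the counts were 4 higher and 4 lower, against 5.09% higher and 15.8% lower of all genes. Summed over all 95 genes the level was 80.3 ± 1.86 FPKM in the libraries labelled CCT4 siRNA and 76.2 ± 1.79 FPKM with control siRNA (SD, n = 3 each). KCNK6 led the order in both groups, at 13.8 FPKM in the libraries labelled CCT4 siRNA and 15.7 FPKM with control siRNA, and was not called (log2 fold change −0.19 ± 0.10, adjusted p = 0.216). With library totals alone KCNK6 was called lower (−0.32).

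KCNS1, KCNE5, KCNJ14 and KCNMA1 were higher in both comparisons. KCNJ14 had 12.2, 12.1 and 11.1 CPM in the libraries labelled CCT4 siRNA and 6.34, 6.4 and 5.37 CPM with control siRNA. The groups were separate, at a fold of 1.95 (log2 fold change 0.97 ± 0.13, adjusted p = 3.76e-04), and GRWD1, with which it shares exon sequence, was not called. KCNE5 had 7.19, 8.1 and 7.07 CPM in the libraries labelled CCT4 siRNA and 1.73, 3.04 and 2.74 CPM with control siRNA, a fold of 2.97 (log2 fold change 1.57 ± 0.21, adjusted p = 4.28e-04). Its overlapping gene ACSL4 was not called in this comparison (log2 fold change −0.19). KCNS1 had 0.981, 1.08 and 1.22 CPM in the libraries labelled CCT4 siRNA and 0.256, 0.0634 and 0.298 CPM with control siRNA. These are 15, 17 and 19 counts and 4, 1 and 5 counts, a fold of 5.11 (log2 fold change 2.35 ± 0.44, adjusted p = 0.00316). KCNS1 reached the count filter's level only in the groups where it was higher, so a difference was built into its passing the filter.

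KCNMA1 had 102, 101 and 85.8 CPM in the libraries labelled CCT4 siRNA and 65.5, 71.9 and 73.6 CPM with control siRNA. The groups did not overlap, and the fold was 1.37 (log2 fold change 0.46 ± 0.09, adjusted p = 0.00498). The antisense gene KCNMA1-AS1 was called higher in both comparisons too, at 0.813 CPM in the libraries labelled CCT4 siRNA and 0.352 CPM with control siRNA, and at 1.05 CPM with anticarin-beta and 0.474 CPM with vehicle. Reads of these 2 genes cannot be told apart if strand was not used in counting.

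KCNK5, KCNJ12 and KCNJ2 moved one way in the siRNA comparison and the other way with the compound. KCNK5 had 19.5, 16.6 and 15.5 CPM in the libraries labelled CCT4 siRNA and 12.5, 11.9 and 13 CPM with control siRNA (log2 fold change 0.46 ± 0.11, adjusted p = 0.0149). KCNK5 did not pass on omission of control siRNA replicate 2 (0.43) or CCT4 siRNA replicate 1 (0.36), nor with library totals alone (0.33) or no low-count filter (0.45). KCNJ12 had 3.73, 4.93 and 6.49 CPM in the libraries labelled CCT4 siRNA and 3.27, 3.36 and 2.98 CPM with control siRNA (log2 fold change 0.66 ± 0.21, adjusted p = 0.0446). KCNJ2 had 7.32, 7.08 and 8.87 CPM in the libraries labelled CCT4 siRNA and 11.2, 10.3 and 10.5 CPM with control siRNA, and was the 1 gene called lower (log2 fold change −0.46 ± 0.15, adjusted p = 0.0435). The opposite-strand gene KCNJ2-AS1 was called lower as well, at 1.48 CPM in the libraries labelled CCT4 siRNA and 3.05 CPM with control siRNA. For both KCNJ12 and KCNJ2 the groups were separate, yet both calls sat near the threshold. KCNJ12 did not pass on omission of vehicle replicate 2 (0.65), vehicle replicate 3 (0.66), anticarin-beta replicate 1 (0.65), anticarin-beta replicate 2 (0.65), control siRNA replicate 1 (0.67), control siRNA replicate 2 (0.69), control siRNA replicate 3 (0.61), CCT4 siRNA replicate 2 (0.67) or CCT4 siRNA replicate 3 (0.44), nor with upper quartile scaling (0.63), library totals alone (0.53), limma-voom (0.62), no low-count filter (0.65), each experiment fitted alone (0.64) or a replicate block (0.63). KCNJ2 did not pass on omission of anticarin-beta replicate 2 (−0.47), anticarin-beta replicate 3 (−0.47), control siRNA replicate 1 (−0.42), control siRNA replicate 2 (−0.48), control siRNA replicate 3 (−0.47), CCT4 siRNA replicate 1 (−0.42) or CCT4 siRNA replicate 2 (−0.40), nor with limma-voom (−0.46) or a replicate block (−0.46). KCNAB1 had the smallest p of the genes that did not pass, with 1.83, 1.64 and 2.31 CPM in the libraries labelled CCT4 siRNA and 2.82, 2.73 and 2.98 CPM with control siRNA (log2 fold change −0.56 ± 0.21, adjusted p = 0.0803).

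A direct test set the compound change against the siRNA change, as the first minus the second. The 2 changes share no control libraries. It passed in 24 of the 46 genes (52.2%), higher in 9 (19.6%) and lower in 15 (32.6%), against 59.9% of all genes, 27.5% higher and 32.4% lower. By more than 2-fold, 8 were higher (17.4%) and 13 lower (28.3%), against 17.8% and 22.1% of all genes. KCNK6 (−3.42 ± 0.15, adjusted p = 3.91e-09), KCNJ2 (3.77 ± 0.20, adjusted p = 1.12e-08), KCNJ14 (2.57 ± 0.18, adjusted p = 1.39e-07) and KCNC4 (−2.77 ± 0.20, adjusted p = 1.49e-07) had the smallest p-values. The rise of KCNJ14 and that of KCNE5 (difference 1.10 ± 0.32, adjusted p = 0.00984) were thus larger with the compound on the log2 scale. For KCNMA1 (difference 0.24, 95% interval −0.04 to 0.52) and KCNS1 (difference 1.37, 95% interval −0.04 to 2.79) the difference missed the threshold (adjusted p = 0.121 and 0.086).

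**Figure D4:**
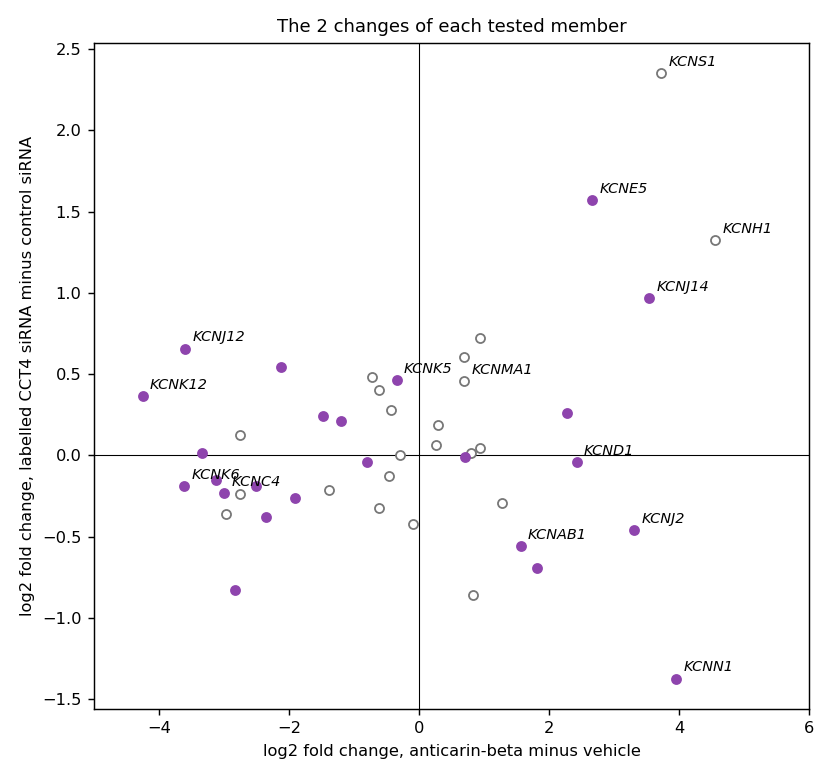
Log2 fold change of each of the 46 tested genes with anticarin-beta (x axis) and in the libraries labelled CCT4 siRNA (y axis), filled where the difference of the 2 changes passed (24 genes). KCNS1, KCNE5, KCNJ14 and KCNMA1 lie at the upper right with both changes called, and KCNJ12, KCNK5 and KCNJ2 lie in the quadrants of opposite sign, while the y value of KCNH1 rests on 3 counts in the libraries labelled CCT4 siRNA and 1 with control siRNA.

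Other genes of potassium handling included higher and lower genes with the compound, and their counts stand beside the 73.0% of all genes that passed (34.9% higher and 38.0% lower), and no list was tested against the other genes. Of 11 channel partner subunits outside the KCN names, 5 were tested, with 2 higher and 2 lower. AMIGO1, an adhesion protein that also binds potassium channels, was lower, at 0.224 ± 0.256 CPM with anticarin-beta and 1.68 ± 0.35 CPM with vehicle (log2 fold change −2.83 ± 0.58, adjusted p = 6.97e-04), as was LRRC38, a gamma subunit of the BK channel (−2.45 ± 0.62, adjusted p = 0.00325). AMIGO1 would not have passed the count filter without the vehicle libraries, so a difference was built into its passing. Of 18 genes of potassium-chloride cotransport and cell volume, 15 were tested, with 6 higher and 6 lower. The cotransporter SLC12A4 was higher, at 97.1 ± 4.74 CPM with anticarin-beta and 33 ± 3.45 CPM with vehicle (1.56 ± 0.11, adjusted p = 5.42e-08). Of the paired kinases that regulate these cotransporters, OXSR1 was higher (0.99 ± 0.07, adjusted p = 6.14e-08) and STK39 lower (−1.90 ± 0.09, adjusted p = 9.07e-10).

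Of 18 channel regulators 17 were tested, with 7 higher and 6 lower. NEDD4L, a ubiquitin ligase that removes KCNQ and sodium channels from the membrane, was higher at 251 ± 14.7 CPM with anticarin-beta and 38.9 ± 1.3 CPM with vehicle (2.69 ± 0.08, adjusted p = 2.23e-11), as were NEDD4 (2.45 ± 0.12) and the kinase SGK1, which restrains NEDD4L (2.53 ± 0.20). REST, a repressor of neuronal genes, was also higher (1.48 ± 0.09, adjusted p = 7.93e-09). Of 10 other cation channels that pass potassium, 6 were tested, with 2 higher and 2 lower. These were TMEM38B (0.85 ± 0.09) and TMEM38A (1.07 ± 0.15), potassium channels of the endoplasmic reticulum, against HCN3 (−1.04 ± 0.22) and the lysosomal TMEM175 (−0.52 ± 0.18). In the libraries labelled CCT4 siRNA, 0 of 5 partner subunits, 3 of 15 cotransport and volume genes (WNK4 higher, LRRC8C and LRRC8D lower), 2 of 17 regulators (both higher) and 0 of 6 other cation channels passed, where 19.7% of all genes did. The kinase WNK4 was the cotransport gene higher in both comparisons, by 3.84 with anticarin-beta and 1.29 in the libraries labelled CCT4 siRNA on the log2 scale. It had 4, 3 and 7 counts with vehicle and 8, 9 and 11 with control siRNA. Of these only the library with 11 reached the filter's level, so a difference was largely built into its passing. LRRC8D was lower in both comparisons (log2 fold changes −3.74 and −1.28), in the siRNA comparison near the threshold (adjusted p = 0.0499).

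Levels also differed between the experiments, which were not compared by a test because treatment, time and handling differ together. KCNK1 averaged 9.84 ± 0.465 CPM with vehicle and 30.4 ± 2.54 CPM with control siRNA (SD, n = 3 each). KCNS3, at 11.4 FPKM, was next after KCNK6 per length with control siRNA, and had 4.79 FPKM with vehicle.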

How the data were processed

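Gene counts from RNA-seq of MG63 cells were used, in 12 libraries, 3 per group. The authors deposited raw counts in 1 table, not normalized or pooled. Per the labels' protocols the kit was stranded TruSeq, and the tools and build named in the submitters' processing notes are featureCounts 1.5.0, Subread, STAR 2.5.2a and hg38. Not given in the sources used here are the annotation release, the use of strand in counting and the handling of multiply mapped reads. Positions, exon lengths (the union of all exons) and overlaps come from GENCODE release 29 on GRCh38, which holds 98.5% of the identifiers and all 95 members, of which 12 share exon sequence with a gene on their strand and 28 with one on the opposite strand. FPKM is the TMM-scaled CPM divided by that length, and long rarely used exons lower it.

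Tests used edgeR 4.0.16 in R 4.3.3 (quasi-likelihood, two-sided, TMM, filterByExpr with a minimum count of 10, 1 mean per group over all libraries, 8 residual degrees of freedom, adjusted over 17717 genes). Standard errors come from the F statistic and fold changes carry a prior count of 0.125. Where a group held 1 to 3 counts, a ratio with a 95% exact counting interval is given, which covers counting error only. Every replicate pair differed beyond counting noise, with a chi-square of 9.35 to 29.7 times its degrees of freedom. The tests were also run on simulated counts with known changes in a small part of the genes, far below the 73.0% that passed with the compound. That run does not check the scaling where so many genes differ.

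Values were named for the 10 highest and 10 lowest called genes with the compound with a mean of at least 0.5 CPM, the 8 smallest p in the siRNA comparison, the 4 smallest p in the difference and the 5 most abundant per length with vehicle, and other tested members were described within their class. A few genes that these rules would name are not reported here. Of the other lists, 2 to 4 called genes of smallest p were named. The members and lists were chosen with earlier results of these data known. Alternatives were limma-voom (limma 3.58.1), DESeq2 1.42.0, scaling by RLE, by the upper quartile or by totals, other filters, fits within an experiment, a block for replicate number, a threshold of 0.01 and the omission of each library.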

Additional observations from a re-analysis of the deposited data

How the results depend on the processing

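The counts of potassium channel genes higher and lower with anticarin-beta (16 and 18), higher in the libraries labelled CCT4 siRNA (6) and in the difference (9 and 15) stayed within 1.5 times under all alternatives run. The count lower in the libraries labelled CCT4 siRNA was 1 and became 4 with library totals alone, 2 with each experiment alone, and 0 with limma-voom, with a replicate block and at a threshold of 0.01; it ran from 0 to 2 when 1 library was left out. Same-numbered libraries deviated from their group means with correlations from −0.031 to 0.026, so no effect shared by replicate number was seen. Whether same-numbered libraries were handled together cannot be told from these values.

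Of 34 genes called with the compound 27 kept direction and call in each refit that gave them a value, of 7 in the siRNA comparison 4, and of 24 in the difference 17. The threshold of 0.01 is not among these refits and was applied to counts alone, and the stricter filter gave no value for KCNE1, KCNH3, KCNH4, KCNN1 and KCNT1. KCNH3 with the compound (adjusted p = 0.0124) and KCNT1 in the difference (adjusted p = 0.0154) would not pass at 0.01. The exceptions with the compound were KCND3, KCNE1, KCNG1, KCNH4, KCNK2, KCNK5 and KCNQ5. KCNG1 reversed with library totals alone (−0.16). In the siRNA comparison the uncalled value of KCNK3 reversed, to −0.0078 under upper-quartile scaling and −0.11 under library totals, and ran from −0.0824 to 0.1038 without 1 library. Those of KCND1 (−0.28 to 0.20), KCNE4 (−0.14 to 0.11) and KCNG3 (−0.40 to 0.19) also changed sign without 1 library. Calls were also gained in the siRNA comparison. KCNK6, KCNAB1 and KCNS3, not called in the main fit, were called lower with library totals alone. KCNS3 was also called with each experiment fitted alone and without vehicle replicate 1. The cause of these changes was not tested. At this depth 49 of the 95 genes did not reach the count filter.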
